A study of Mus musculus with 4 samples.

Results

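The genes described are the subunits of the mitochondrial oxidative phosphorylation complexes that are encoded in the nucleus. They were chosen by symbol: every annotated gene whose symbol starts with Ndufa, Ndufb, Ndufc, Ndufs, Ndufv, Uqcr, Cox4i, Cox5, Cox6, Cox7, Cox8 or Atp5, together with Sdha, Sdhb, Sdhc, Sdhd and Cyc1, leaving out the Ndufaf assembly factors. The rule found 81 genes among the 17097 with a probe set on the array, and where several probe sets read a gene, the brightest on average was used. By symbol, 35 belong to complex I, 4 to complex II, 8 to complex III, 17 to complex IV and 17 to complex V. A gene was tested where its mean log2 value reached 4.45, the 40th percentile of all probe sets; 80 of the 81 did, among 11874 genes tested, and Cox7b2 did not.

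RNA levels were read on 4 Affymetrix mouse arrays whose probes are all perfect matches. The material was colon adenoma organoids, tumour epithelium grown as three-dimensional cultures, on a C57BL/6 background. The 2 arrays labelled Apc null came from organoids that were Gata6+/+ and Apc fl/fl, and the 2 labelled Gata6 null/Apc null from organoids that were Gata6 fl/fl and Apc fl/fl. Both groups carried VillinCreERT2, a tamoxifen-activated Cre recombinase under the promoter of the epithelial gene Villin, so by the labels the loss of Apc, a tumour suppressor that restrains Wnt signalling, is shared by all 4 arrays. Cultures were grown for 7 days in medium with EGF at 50 ng/mL. The labels also give a batch, A or B, and each batch held 1 array of each genotype; what the batches were is not stated, nor whether the biological replicates came from separate mice, so p-values measure only the spread between these arrays. The study's title concerns GATA6, a zinc-finger transcription factor, in the self-renewal of adenoma stem cells; the comparison here asks how far subunit mRNA differed between the genotypes.

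The brightest Gata6 probe set read 9.37 and 9.40 on the arrays labelled Gata6 null/Apc null (batch A, then batch B) and 8.89 and 8.61 on those labelled Apc null, so it was higher, not lower, where the gene is labelled null: by 0.48 within A and by 0.79 within B, at a limma adjusted p of 0.418 without the batch as a block and 0.039 with it. The brightest Apc probe set read 8.34 and 8.14 against 8.35 and 8.34, well above the filter level on every array. Whether the probes of either gene lie in the deleted part is not given in the sources used here, and every direction below rests on the labels. Of the epithelial markers, 14 of 14 measured were above the filter level (Epcam 11.29 to 11.53 on the 4 arrays, Vil1 9.82 to 10.18), while Ptprc, the pan-leukocyte marker, stood at 3.07 to 3.25 and Col1a1, a fibroblast collagen, at 4.15 to 4.34, both below it. All 14 epithelial markers had a lower mean in the group labelled Gata6 null/Apc null, with the log2 of their summed level at 14.61 and 14.62 against 14.90 and 14.90. With the batch block, 2 of the 14, Car1 and Cdx2, passed the limma genotype test, beside 6.88% of all genes. None passed it without the block (4 at an unadjusted p under 0.05). Of 8 absorptive colonocyte markers, 4 were above the filter, all with a lower mean in that group (median -0.76), and 3 passed with the block, Car1, Car2 and Cdhr5; their summed log2 level was 11.32 and 11.71 against 12.09 and 12.59. Below the filter were 7 of 9 fibroblast, 4 of 7 immune, 3 of 6 endothelial and 3 of 6 muscle markers, and the summed log2 level in the Gata6 null/Apc null and Apc null arrays spanned 7.23 to 7.31 and 7.29 to 7.29 for fibroblast, 7.42 to 8.33 and 8.21 to 8.70 for immune, 7.09 to 7.26 and 7.08 to 7.11 for endothelial, and 7.21 to 7.53 and 7.40 to 7.41 for muscle markers. The part of these shifts in the subunit values was not tested. In bulk RNA, fewer cells of a type and less RNA per cell cannot be told apart.

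Oxidative phosphorylation couples the oxidation of NADH and succinate to ATP synthesis. Complex I takes electrons from NADH and complex II from succinate; both pass them through coenzyme Q to complex III, which hands them to cytochrome c, and complex IV reduces oxygen to water. Complexes I, III and IV pump protons across the inner mitochondrial membrane, and complex V, the ATP synthase, uses the proton gradient to make ATP. All but complex II also hold subunits encoded in mitochondrial DNA, which are not among these genes. In the colonic epithelium this pathway is best known for burning butyrate made by gut bacteria. NRF1, the ETS factor GABP, YY1 and the estrogen-related receptors (ERR) are transcription factors known to act at promoters of subunit genes.

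RefSeq promoter windows (build GRCm38.p6, 250 bases before to 50 after the annotated start) were found for 64 of the 81 genes, 69 windows in all. An exact search on both strands for the NRF1 core CGCATGCG found it in 9 of the 69 windows (13%), against 615 of 32851 windows of all genes (1.87%). The YY1 motif AAGATGGC was in 10 windows (14.5%) against 2.75% of all windows. In 8 of these 10 genes the motif began 23 to 39 bases after the start; in Atp5pb it spanned the start, beginning 3 bases before it, and in Atp5j it began 88 bases before. The GABP motif CCGGAAGT was in 4 windows (5.8%, all windows 3.89%) and the ERR motif TCAAGGTCA in 2, those of Atp5g3 and Sdhd (2.9%, all windows 0.423%). No motif overlaps another in the sequences below. A match is a run of letters and not a measured binding site.

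Stretches of 210 bases, from 180 before to 30 after the start, are shown 5′ to 3′ on the gene's own strand, which is the minus strand for all 6; capitals mark the motifs. Atp5j (chr16:84834947-84835156) holds CGCATGCG and AAGATGGC, Uqcr11 (chr10:80406792-80407001) holds CCGGAAGT and CGCATGCG, and Ndufa8 (chr2:36049309-36049518), the complex I subunit with the largest negative genotype difference, holds CGCATGCG beginning 9 bases before the start. Atp5g1 (chr11:96075602-96075811), Uqcr10 (chr11:4704315-4704524) and Cox6b2 (chr7:4753065-4753274) are shown because they differed between the batches, and hold none of the 4 motifs in this stretch.
Atp5j: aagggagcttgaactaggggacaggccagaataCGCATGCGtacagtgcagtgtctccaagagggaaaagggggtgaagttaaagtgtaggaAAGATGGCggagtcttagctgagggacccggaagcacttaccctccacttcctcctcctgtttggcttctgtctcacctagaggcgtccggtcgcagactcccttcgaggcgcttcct
Uqcr11: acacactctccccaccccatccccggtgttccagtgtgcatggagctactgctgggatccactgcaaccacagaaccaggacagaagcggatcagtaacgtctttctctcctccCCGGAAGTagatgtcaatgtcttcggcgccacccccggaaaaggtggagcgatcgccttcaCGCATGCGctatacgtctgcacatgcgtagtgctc
Ndufa8: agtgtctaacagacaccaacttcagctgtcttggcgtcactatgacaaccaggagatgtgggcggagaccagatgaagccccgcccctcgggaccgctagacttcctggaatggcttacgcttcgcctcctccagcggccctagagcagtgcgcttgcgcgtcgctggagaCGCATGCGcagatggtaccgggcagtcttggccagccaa
Atp5g1: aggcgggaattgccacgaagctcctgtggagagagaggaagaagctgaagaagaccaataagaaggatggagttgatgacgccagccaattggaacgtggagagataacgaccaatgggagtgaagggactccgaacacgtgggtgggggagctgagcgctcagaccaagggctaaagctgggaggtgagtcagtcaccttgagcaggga
Uqcr10: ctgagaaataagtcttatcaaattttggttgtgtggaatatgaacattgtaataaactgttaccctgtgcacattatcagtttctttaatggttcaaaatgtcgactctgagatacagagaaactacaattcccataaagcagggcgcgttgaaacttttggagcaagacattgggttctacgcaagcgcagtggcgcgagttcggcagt
Cox6b2: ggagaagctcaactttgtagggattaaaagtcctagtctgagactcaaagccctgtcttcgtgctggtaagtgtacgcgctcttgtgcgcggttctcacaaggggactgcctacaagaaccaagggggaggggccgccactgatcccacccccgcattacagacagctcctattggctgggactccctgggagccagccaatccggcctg

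Between the genotypes the subunits lay close together. With the log2 difference taken as Gata6 null/Apc null minus Apc null, 74 of the 80 tested members (92.5%) differed by less than 0.2, against 59.0% of all genes tested, and no member differed by 1 or more, against 606 of all genes (5.10%). None of the 80 passed an adjusted p of 0.05 in limma's moderated test across all genes, and none had an unadjusted p under 0.05; over all genes 77 passed, a background of 0.648%. With the batch letter as a block, 817 genes passed (6.88%), still with no member among them, 3 members at an unadjusted p under 0.05 and a lowest adjusted p of 0.112, for Ndufa8. A missed threshold does not show equal levels, so the interval of each difference is the more informative value. The intervals come from the fit without the block, so they include the spread between batches. The 95% interval lay within 0.5 log2 units of 0 for 52 of 80 members (65.0%), against 11.2% of all genes. It lay within 1 unit for 77 (96.3%), against 66.2%. The 3 members with wider intervals were Ndufa4l2, Cox6b2 and Cox7a1. Their standard errors were 1.11, 0.971 and 0.644 without the block, and 0.505, 0.253 and 0.389 with it.

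The members were also brighter than most genes. The mean over the arrays was above 8 for 73 of 80 members (91.3%) and for 35.8% of all genes. Among the 4246 genes with a mean above 8, the median absolute difference was 0.139, and 16.8% had an interval within 0.5 of 0. For the 73 members above 8 these values were 0.055 and 71.2%. The 2 groups were not matched in brightness: the median of the means was 9.09 for the 4246 genes and 10.64 for the 73 members. Over all 80 members the median absolute difference was 0.056 and the median standard error 0.140, against 0.159 and 0.240 over all genes. The part of brightness in the narrow intervals was not tested.

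The signed differences were small and did not keep their sign between batches. The members' median difference was 0.039 (58 positive and 22 negative), beside -0.029 over all genes, of which 44.1% were positive. Within batch A the median was -0.035, with 27 of 80 positive, and within batch B it was 0.099, with 67 of 80 positive; over all genes the medians were -0.049 and -0.012. Of the members, 52 (65.0%) had opposite signs in A and B, against 36.6% of all genes. Set against each gene's own mean over the 4 arrays, the median member stood at 0.015 on Gata6 null/Apc null A, 0.045 on Apc null A, 0.008 on Gata6 null/Apc null B and -0.083 on Apc null B. Over all genes tested the same medians were 0.012, 0.047, -0.040 and -0.032. The members' lowest array was thus Apc null B. Leaving it out turned the members' median difference to -0.027, while leaving out Apc null A raised it to 0.109. Both arrays of a group lay above both of the other for 11 of the 80 members with Gata6 null/Apc null higher, close to the share of all genes, 14.7%, and for 3 members with it lower, against 17.3% of all genes.

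**Figure D1:**
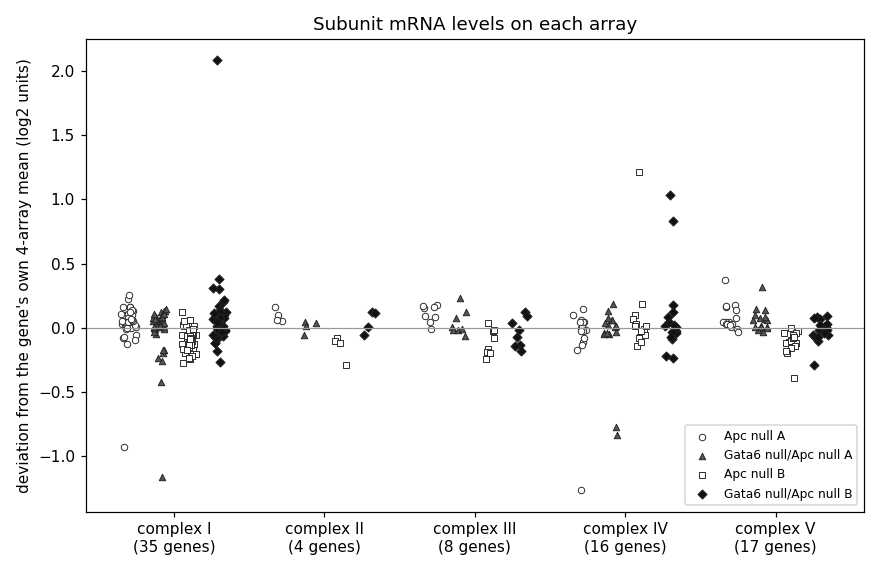
Each point is 1 subunit gene on 1 array, plotted as its log2 deviation from that gene's mean over the 4 arrays, for the 80 tested genes by complex. Between 69 and 75 of the 80 genes lie within 0.2 of their own mean on each array. The points farthest out belong to Ndufa4l2, plotted under complex I by its symbol, and to Cox6b2 and Cox7a1 in complex IV.

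**Figure D2:**
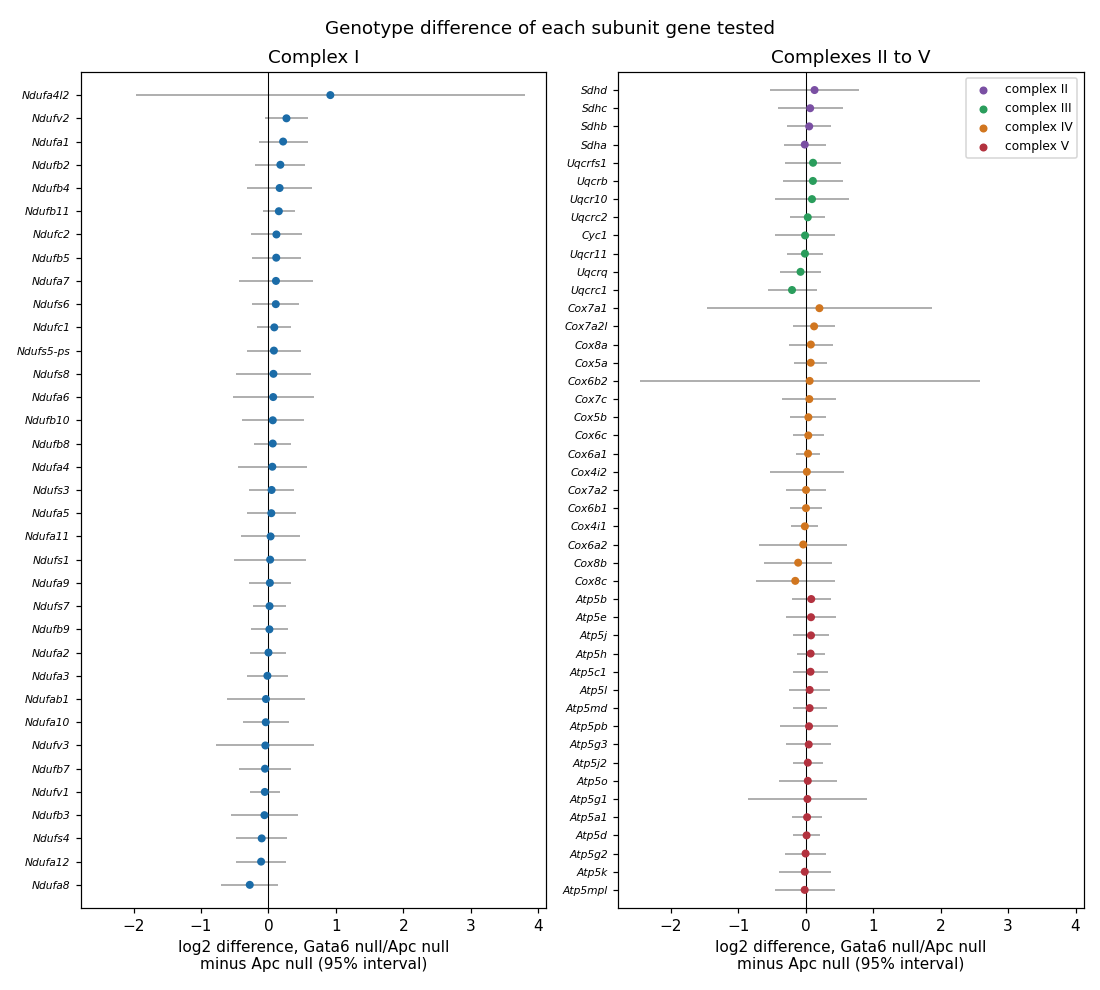
Points are log2 differences, Gata6 null/Apc null minus Apc null, of each tested subunit gene. Lines are limma's 95% intervals (2 arrays per group, fit without the batch block). Ndufa4l2, Cox6b2 and Cox7a1 have the widest intervals, and every interval includes 0.

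The 35 genes grouped by symbol under complex I, the NADH dehydrogenase, had a median difference of 0.047. They ran from -0.28 for Ndufa8 to 0.92 for Ndufa4l2, which is in this group by its symbol only. The next largest was 0.27, for Ndufv2. The core subunits of complex I carry the flavin and the iron-sulfur clusters. Ndufv1, which binds NADH and the flavin, read 11.35 and 11.28 on the arrays labelled Gata6 null/Apc null (batch A first here and below) and 11.41 and 11.33 on those labelled Apc null, a difference of -0.05 (SE 0.085). Ndufs1, the largest core subunit, read 8.99 and 8.80 against 9.01 and 8.73, a difference of 0.03 (SE 0.206). In both genes the arrays of the groups overlapped.

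Ndufv2, a core subunit with an iron-sulfur cluster, had the smallest adjusted p of all members in the fit without the block; with the block, or with arrays centred on ribosomal protein genes, that member was Ndufa8. It read 10.40 and 10.37 on the Gata6 null/Apc null arrays and 10.15 and 10.08 on the Apc null arrays, a difference of 0.27 (SE 0.120; 1.20-fold, 95% interval 0.969 to 1.496) with a limma adjusted p of 0.757 (0.128 with the batch block). The groups did not overlap, the difference was 0.24 within batch A and 0.29 within batch B, and a second Ndufv2 probe set gave 0.25. Ndufa8, an accessory subunit on the intermembrane-space side, read 10.29 and 10.04 against 10.56 and 10.32, a difference of -0.28 (SE 0.162; fold 0.826, interval 0.617 to 1.10). Its batches gave -0.27 and -0.29, both Gata6 null/Apc null arrays lay below both Apc null arrays, and its adjusted p was 0.939. Neither difference passed the test.

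The other members of complex I that stood apart between groups differed by less. Ndufa1, Ndufb2, Ndufb5, Ndufb8, Ndufb11 and Ndufc1, accessory subunits of the membrane arm, had both Gata6 null/Apc null arrays above both Apc null arrays, with differences from 0.06 (Ndufb8) to 0.22 (Ndufa1); none passed the test. In Ndufa1 the values were 10.74 and 10.86 against 10.72 and 10.44, so the difference came from batch B (0.42) more than from batch A (0.02). Ndufa12, an accessory subunit, had a difference of -0.11 at its brightest probe set and 0.39 at another, which read 9.47 and 10.07 against 9.53 and 9.22. These probe sets of 1 gene thus disagreed in sign. Over all members, 39 had several probe sets; of the 50 other probe sets above the filter level, 45 differed by less than 0.2, and the 59 other probe sets in all spanned -0.27 to 0.39. The symbol Ndufs5-ps, a pseudogene by name, may share sequence with its parent gene, and its value, a difference of 0.08, is uncertain for that reason.

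Complex II, succinate dehydrogenase, sits in both the respiratory chain and the TCA cycle. Sdha, the flavoprotein that binds succinate, read 10.77 and 10.68 against 10.83 and 10.65 (difference -0.02, SE 0.119), and Sdhb, the iron-sulfur subunit, 10.40 and 10.37 against 10.41 and 10.26 (0.05, SE 0.124). Sdhc and Sdhd, the membrane anchors, differed by 0.06 and 0.13. In all 4 genes the groups overlapped, and the batches had opposite signs, negative in A and positive in B.

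Complex III, the cytochrome bc1 complex, had a median difference of 0.008. Cyc1, its cytochrome c1, read 10.75 and 10.50 against 10.81 and 10.47, a difference of -0.01 (SE 0.170), and Uqcrfs1, the Rieske iron-sulfur protein, 9.93 and 9.90 against 9.95 and 9.67 (0.11, SE 0.162). Uqcrc1, a core protein, was the only member of this complex whose groups did not overlap: 10.10 and 9.93 against 10.28 and 10.16. Its difference was -0.21 (SE 0.140), with limma's adjusted p at 1.00 (0.245 with the batch block). Uqcrb, which binds near the quinone site, and Uqcrq, a small subunit, differed by 0.10 and -0.08.

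Complex IV, cytochrome c oxidase, had a median difference of 0.034 over 16 tested genes. Cox4i1, the ubiquitous form of its largest nuclear-encoded subunit, read 11.56 and 11.53 against 11.59 and 11.52, a difference of -0.02 (SE 0.077; fold 0.989, interval 0.862 to 1.14). Cox5a read 11.04 and 10.99 against 10.98 and 10.90 (0.07, SE 0.095), and Cox5b 11.69 and 11.47 against 11.57 and 11.51 (0.04, SE 0.103). The groups of Cox5a did not overlap, and those of Cox4i1 and Cox5b did. Cox7a2l, a subunit-like protein that joins complexes III and IV into supercomplexes, differed by 0.12 (SE 0.120).

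Complex V, the ATP synthase, gave the narrowest range, from -0.02 to 0.08 over 17 genes, and 16 of its 17 intervals lay within 0.5 of 0. The catalytic beta subunit Atp5b read 11.26 and 11.07 against 11.15 and 11.03 (difference 0.08, SE 0.112; fold 1.06, interval 0.864 to 1.29). Atp5a1, the alpha subunit, read 11.49 and 11.36 against 11.42 and 11.40 (0.02, SE 0.088), and Atp5c1, the gamma subunit of the rotating stalk, 11.20 and 11.14 against 11.18 and 11.02 (0.07, SE 0.101). Atp5e, the epsilon subunit, was at 0.08, and at the low end were Atp5k and Atp5mpl, small membrane subunits, at -0.02 each. Of the 17, Atp5d and Atp5h had groups that did not overlap, with differences of 0.01 and 0.07.

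Several subunits exist as isoforms with different tissues, and each isoform was read by its own probe set, so its level can be set against the filter level but not against the other isoform. Forms known from most tissues had high signals. Over the 4 arrays Cox6a1 stood at 11.72 to 11.77, Cox7a2 at 11.57 to 11.85, Cox6b1 at 11.16 to 11.28, Cox8a at 10.58 to 10.82 and Ndufa4 at 10.52 to 11.02. Of these, Ndufa4 spanned the widest range, and its difference, batch B minus batch A, was -0.34 (limma adjusted p 0.060). Ndufa4 bears a complex I name but is now known as a subunit of complex IV. Of forms known from heart and skeletal muscle, Cox6a2 stood at 5.92 to 6.33 and Cox8b at 5.71 to 5.88, and of the lung form Cox4i2 and the testis form Cox8c the values were 5.72 to 5.93 and 5.50 to 5.92. None of these dim isoforms passed the genotype test, their differences being -0.04 for Cox6a2, -0.11 for Cox8b, 0.01 for Cox4i2 and -0.16 for Cox8c. Cox7b2, another testis form, was below the filter at 3.17 to 3.39. The genes Atp5g1, Atp5g2 and Atp5g3 encode the same mature c subunit of the ATP synthase ring, and their genotype differences were 0.02, -0.0047 and 0.04.

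**Figure D3:**
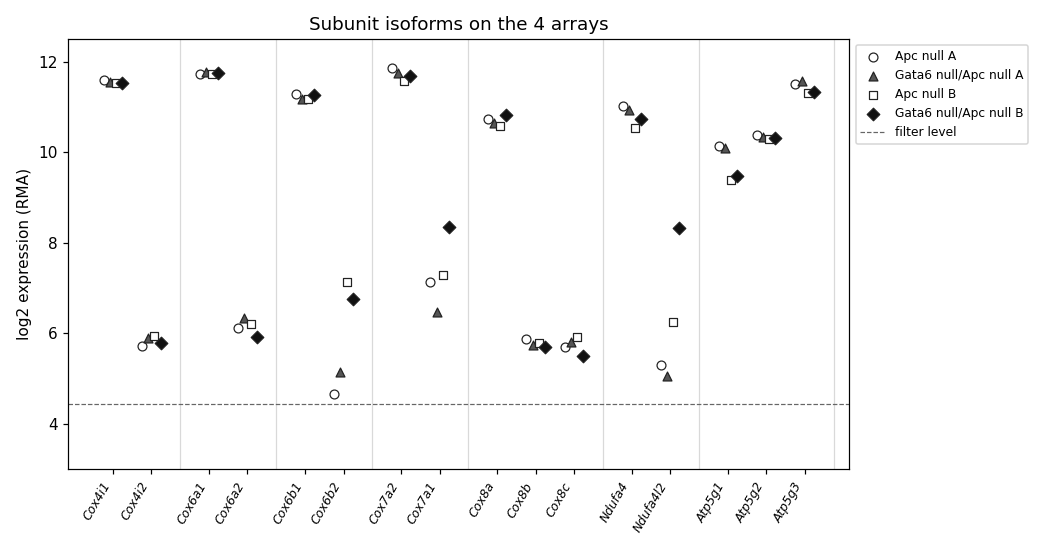
Deposited log2 values of subunit isoforms on the 4 arrays, grouped by subunit; the dashed line is the filter level of 4.45. Levels of different probe sets are not comparable with each other; Ndufa4l2, Cox6b2 and Cox7a1 vary between arrays by over 1 log2 unit, while Cox4i1 and Cox6a1 vary by less than 0.1.

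Ndufa4l2, Cox7a1 and Cox6b2 varied far more than the rest. Ndufa4l2, a paralogue of Ndufa4 known as a hypoxia-inducible gene, read 5.07 on Gata6 null/Apc null A, 8.32 on Gata6 null/Apc null B, 5.30 on Apc null A and 6.25 on Apc null B. It was high on 1 array, and its genotype difference of 0.92 (SE 1.11, limma adjusted p 1.00) was split into -0.23 within A and 2.07 within B. Cox7a1, the heart and muscle form of subunit VIIa, read 6.48 and 8.35 against 7.14 and 7.29, so its differences were -0.66 within A and 1.06 within B. Its lowest and its highest array both belong to the group labelled Gata6 null/Apc null. Cox6b2, the testis form of subunit VIb, read 5.16 and 6.76 against 4.66 and 7.14: both arrays of batch B lay above both of batch A, and the genotype difference was 0.06 (SE 0.971).

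**Figure D4:**
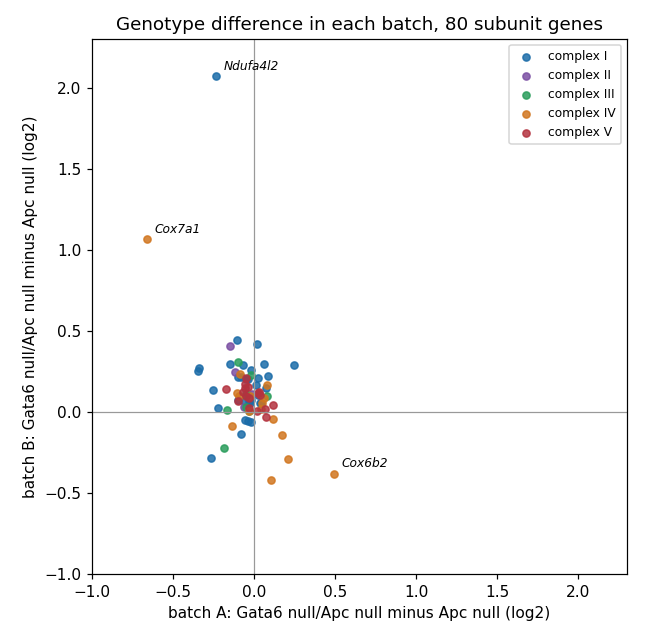
Each point is 1 of the 80 tested subunit genes, with its genotype difference in batch A on the horizontal axis and in batch B on the vertical axis (log2, 1 array per genotype in each batch). Most points lie near 0 and above the horizontal line; Ndufa4l2, Cox7a1 and Cox6b2 lie apart.

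The batch letter gave a second comparison, batch B minus batch A, fitted with genotype and batch. Of the 80 members 5 passed an adjusted p of 0.05, 2 of them higher and 3 lower in batch B, against backgrounds of 7.53% and 9.12% of all genes, so neither share exceeds the background. The members' median batch difference was -0.063 (all genes -0.058) and its median size 0.114 (all genes 0.248). Ndufa4l2 was higher in batch B by 2.10 (SE 0.505; 4.28-fold, adjusted p 0.042) and Cox6b2 by 2.04 (SE 0.253; 4.12-fold, adjusted p 0.012). Within the genotype labelled Gata6 null/Apc null the batches of Ndufa4l2 lay 3.25 apart, and within Apc null 0.95; for Cox6b2 both arrays of batch B lay above both of batch A. The members that were lower in batch B differed by far less. Atp5g1 read 10.08 and 10.14 in batch A (Gata6 null/Apc null first) and 9.48 and 9.38 in batch B, a difference of -0.68 (SE 0.096; 1.61-fold lower, adjusted p 0.015). Uqcr10, a small subunit of complex III, fell by 0.39 (SE 0.082, adjusted p 0.032) and Cyc1 by 0.30 (SE 0.074, adjusted p 0.046), with both arrays of batch B below both of batch A. The calls depend on the model: with batch alone in the fit 0 of all 11874 genes passed in limma, and so 0 members (11 at an unadjusted p under 0.05). Without the mean-variance trend 873 genes passed (7.35%, against 16.6% with it) and 1 member, Cox6b2.

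Probe sets of the same gene could disagree between the batches. A second probe set of Atp5c1, the gamma subunit, read 6.74 and 6.83 in batch A and 8.48 and 8.33 in batch B, 1.62 higher, while its brightest probe set differed by -0.11. At Uqcr10 the other probe sets gave -0.24 and -0.03, beside -0.39 at the one used. Of the c subunit genes, Atp5g3 differed by -0.22 (adjusted p 0.054) and Atp5g2 by -0.06 (adjusted p 0.668), neither past the threshold.

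Because Ndufa4l2 is a known hypoxia-inducible gene, 12 other such genes were read beside it, a list made after its values were seen. All 12 had higher means in batch B, and 10 passed the test as higher, beside 7.53% of all genes. Their median batch difference was 1.70. The log2 of their summed level was 12.96 on Gata6 null/Apc null A, 13.80 on Apc null A, 14.37 on Gata6 null/Apc null B and 14.32 on Apc null B. Car9, a carbonic anhydrase, read 5.86 and 10.25 in the group labelled Gata6 null/Apc null and 9.33 and 10.28 in Apc null. The list was thus lowest on Gata6 null/Apc null A and alike on both arrays of batch B, whereas Ndufa4l2 was near its lowest on both arrays of batch A and 2.07 apart within batch B. Between the genotypes all 12 had a lower mean in Gata6 null/Apc null (median difference -0.70), whereas Ndufa4l2 was at 0.92. The median of the 12 was -1.25 within batch A, and 0.02 within batch B, where 8 were positive. None of the 12 passed the genotype test in limma, with or without the block, and none had an unadjusted p under 0.05 without it. Cd68, a macrophage marker, also passed as higher in batch B (4.94 and 5.92 in batch A, 7.23 and 7.56 in batch B), while Ptprc stayed below the filter. The part of these genes in the batch differences of the subunits was not tested.

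Other mitochondrial genes were read from 5 lists. Of the complex assembly factors, 39 of 40 measured were above the filter. None passed the genotype test with or without the block, and the median difference was -0.06. Within batch A the median was -0.21, with 5 of 39 positive, and within batch B it was 0.07, with 23 of 39 positive. Acad9 and Ndufaf6, which help assemble complex I, differed by -0.30 (SE 0.230) and -0.34 (SE 0.261), and Cox15, which makes heme A for complex IV, by -0.22 (SE 0.146), all with adjusted p at 1.00. Between batches, 1 of the 39 passed as higher, Pet100, and 4 as lower, Ndufaf2, Ndufaf4, Ndufaf5 and Cox10. Over all genes 7.53% passed as higher and 9.12% as lower. Ndufaf4, a complex I assembly factor, read 8.60 and 8.58 in batch A and 7.29 and 7.36 in batch B, 1.27 lower (limma adjusted p 0.011).

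Among the mobile carriers, coenzyme Q enzymes and adenine nucleotide translocases, 18 of 19 were above the filter and none passed the genotype test (median -0.04). Slc25a4 (Ant1), which exchanges ADP and ATP across the inner membrane, read 10.75 and 10.69 against 10.49 and 10.37, a difference of 0.29 with an adjusted p of 0.654. Coq8a, needed for coenzyme Q synthesis, read 7.26 and 7.38 against 6.40 and 6.88 (0.68, adjusted p 0.677). Both groups of each gene were apart without passing the test. In batch B, Coq7, Cycs (cytochrome c) and Slc25a5 were lower (-0.90, -0.42 and -0.30). Of the 18, 3 passed as lower in batch B and none as higher, beside 9.12% and 7.53% of all genes.

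Of the TCA cycle and pyruvate dehydrogenase genes, 21 of 22 were above the filter. None of the 21 passed without the block and 1 with it, beside 6.88% of all genes with the block. That gene, Pdk2, a kinase that inhibits pyruvate dehydrogenase, read 8.09 and 9.24 against 7.28 and 8.68, a difference of 0.69 (limma adjusted p 1.00 without the block, 0.044 with it). Pdk2 and its relative Pdk1 were also higher in batch B, by 1.28 and 1.75, and Pdhx, a structural component of the dehydrogenase, lower (-1.04). Of the 21, 2 passed as higher and 1 as lower in batch B, beside 7.53% and 9.12% of all genes. Of the regulators of mitochondrial genes and mitochondrial DNA, 18 of 19 were above the filter. Of the 18, 1 passed with the block, beside 6.88% of all genes. That gene, Hnf4a, an epithelial transcription factor, read 10.64 and 10.67 against 10.93 and 11.16. Its difference was -0.39 (limma adjusted p 0.440 without the block, 0.042 with it). Ppargc1b, a coactivator of mitochondrial biogenesis, differed by -0.54 (adjusted p 0.737). Lrpprc, Pprc1 and Tfb2m were lower in batch B (-0.86, -0.76 and -0.68). Of the 18 regulators, 3 passed as lower in batch B and none as higher, beside 9.12% and 7.53% of all genes.

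The mitochondrial ribosomal proteins, which translate the subunits encoded in mitochondrial DNA, were lower in batch B in most genes measured. All 73 of them were above the filter. None passed the limma genotype test in either fit or had an unadjusted p under 0.05 without the block. The median genotype difference was -0.10 (17 positive, 56 negative). Within batch A it was -0.205, with 6 of 73 positive, and within batch B -0.013, with 33 of 73 positive. In batch B 68 of 73 had a lower mean, 15 passed as lower (background 9.12% of all genes) and 1, Mrpl24, as higher (background 7.53%), with a median batch difference of -0.34. Mrpl20 read 8.09 and 8.47 in batch A and 7.26 and 7.28 in batch B, and Mrps22 8.43 and 8.80 in batch A and 7.55 and 7.72 in batch B. In both genes the batches did not overlap. Beside this list the subunits' median of -0.063 was nearer to 0, a description for which no test was made.

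**Figure D5:**
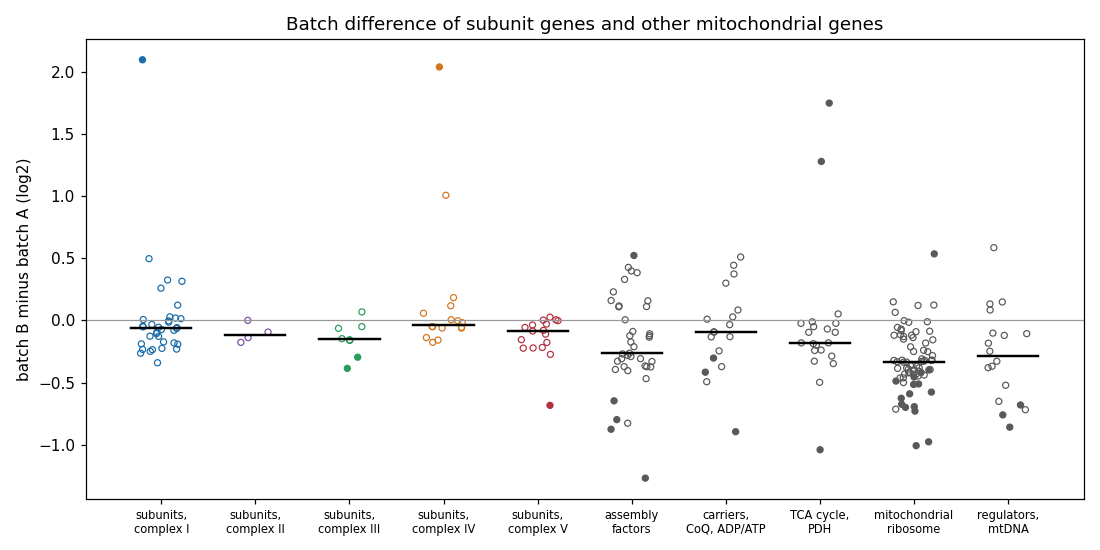
Log2 difference, batch B minus batch A, of each tested gene of the subunits by complex and of 5 other mitochondrial lists; filled points passed limma's adjusted p of 0.05 and bars are medians. The subunit medians run from -0.15 (complex III) to -0.03 (complex IV), and the median over all 80 is -0.063. Those of the other lists run from -0.09 (carriers) to -0.34 (mitochondrial ribosomal proteins).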

How the data were processed

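The deposited values were on a log2 scale, 1 per probe set and array; per the submitters' processing notes the authors used RMA and the affy package, with no versions given. RMA subtracts background, quantile-normalises the arrays and summarises probes, which forces arrays to a common distribution and compresses dim differences. Per the labels' protocols, 25 ng of total RNA with an integrity number of at least 9 was amplified and 8 µg of cDNA was labelled. The table had 45141 probe sets; 104 controls were left out, and 28898 had 1 gene symbol in the platform annotation, 551 several and 15588 none. One probe set per gene (highest mean) and a mean of at least 4.45 left 11874 genes. These were fitted in limma 3.58.1 (R 4.3.3) with lmFit and eBayes with a mean-variance trend, two-sided. P-values were adjusted by Benjamini-Hochberg across the 11874 genes. The fit was tested on simulated data with changes of at least 2 log2 units, so that test does not cover differences as small as the members'. The small number of arrays, 2 per group, limits the precision.

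The labels say that the letters A and B mark a shared batch. Differences between batches correlated at 0.675 between the genotypes across genes, so the letters pair the arrays. Calls with the batch as a block are given beside the main results. Unless stated, standard errors and intervals of genotype differences come from the fit without the block, so they include the spread between batches. The median array value was 4.91 to 5.04, and arrays correlated at 0.963 to 0.979.

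The members and gene lists were chosen with earlier results of these data known. Named were members past the threshold in either fit, the 2 largest differences each way per complex, central subunits, isoforms with restricted tissue, and, of each other list, genes past the threshold or the 2 with the smallest p; others named were chosen after their values were seen, as were the hypoxia list, the sequences shown and the alternatives added for the batch comparison. Alternatives changed the block, moderation, filter, probe set choice, scaling and the arrays used. Promoter sequences are from RefSeq, build GRCm38.p6.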

Additional observations from a re-analysis of the deposited data

Results flagged for a closer look

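For 2 subunit genes the genotype difference (Gata6 null/Apc null minus Apc null, log2) had opposite signs in the batches and differed by over 1 unit. Within batch A, Ndufa4l2 was at -0.23 and Cox7a1 at -0.66; within batch B, they were at 2.07 and 1.06. Each value compares 1 array with 1 array, so the difference between the batches was not tested. In both genes Gata6 null/Apc null B was the highest of the 4 arrays and Gata6 null/Apc null A the lowest.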

How the results depend on the processing

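The number of members called between the genotypes was 0 under all 13 alternatives in limma, with a lowest adjusted p between 0.112 (batch block) and 1.00; at an unadjusted p under 0.05 there were 3 members with the block, 2 without Gata6 null/Apc null A and 0 otherwise. Over all genes 77 passed, 817 with the replicate block, and 33 to 130 when 1 array was left out; the other alternatives stayed within 1.5 times. The members' median difference of 0.039 ranged from -0.027 (without Apc null B) to 0.109 (without Apc null A), and was 0.005 with arrays centred on ribosomal protein genes and 0.054 with median centring. Of 503 values of named members under alternatives, 61 changed sign, none of them a called difference. For batch B minus batch A, 5 members passed beside 16.6% of all genes. With batch alone, 0 members and 0 of 11874 genes passed. Runs with batch alone and 1 array left out were added after seeing the data and leave 1 array in 1 of the batches. In these the batch differences of all 5 members kept their sign. That of Ndufa4l2 ran from 1.06 to 3.13 and that of Cox6b2 from 1.79 to 2.29. Without the mean-variance trend 1 member passed (7.35% of all genes), and with median centring 7 (26.2%), 4 of them among the 5, without Cyc1. In other alternatives chosen after seeing the data, 4 members passed with the mean of all probe sets (15.9%). Of these, Cox6b2 and Ndufa4l2 were shared with the 5. Without shared-sequence probe sets 7 passed (17.5%). The causes of these changes were not tested. The standard error of the Cox6b2 genotype difference was 0.971 without the batch block and 0.253 with it.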
